A study of Danio rerio with 4 samples.

Results

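Semaphorin and plexin genes were followed in GFP-positive cells of the caudal hematopoietic tissue (CHT) of zebrafish larvae, isolated by cell sorting. Members were all genes of the deposited tables whose Ensembl identifier has a symbol starting with sema and a digit, or with plxn. There were 44 of them among 28346 genes listed, 30 semaphorins and 14 plexins. The larvae were wild type and untreated, aged 5 days post fertilisation (dpf), and all carried kdrl:GFP and lyve1b:DsRed, so every group shares both transgenes. Sorting on both reporters gave the vein group, and sorting on GFP without DsRed gave the non-vein group; each has 2 libraries. The kdrl promoter marks endothelium in general and that of lyve1b marks veins and lymphatic vessels, so the non-vein group is defined by lacking the second reporter and not by an arterial marker. The CHT is a venous plexus in the tail where stem and progenitor cells of the blood settle and divide. The question addressed is which genes set the vein cells of the plexus apart from its other GFP-positive cells.

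Semaphorins are extracellular guidance cues, first known from growing axons, and plexins are their main receptors. The cytoplasmic part of a plexin carries a GTPase-activating domain, and its activation generally makes a cell detach and pull back from the source of the cue. Class 3 semaphorins are secreted and mostly need a neuropilin beside a class A plexin, class 4 members mainly bind class B plexins, class 6 members bind class A plexins, and semaphorin 7A, held by a lipid anchor, binds plexin C1 and integrins. In zebrafish trunk vessels the receptor encoded by plxnd1 is known to keep sprouts out of tissue that makes class 3 semaphorins.

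The libraries held 15672159 to 18862102 estimated counts. Levels are given as CPM (counts scaled to library size, here with the TMM method) when a gene is followed between libraries, and as FPKM (fragments scaled by transcript length and library size) when genes are set against each other. Where a gene has 0 counts, its level could still be 0.152 to 0.196 CPM depending on the library, by counting error only. Of the 44 members 25 passed the filter on low counts and were tested, 15 semaphorins and 10 plexins, and the other 19 had at most 63 counts in any library. The name table gives some zebrafish genes a human-style symbol without a paralog letter, and 6 symbols here stand for 2 identifiers each, which are added where they matter. Estimated counts of such paralogs can share reads, so their split is uncertain. The labels do not say whether libraries of a group were made from separate larvae, so the p-values reflect no more than sample-to-sample spread, and that may be technical. Over all genes, 1826 of 15953 tested genes changed at an adjusted p under 0.05 (11.4%), 656 higher and 1170 lower in vein.

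Of the 25 tested members 5 changed, where 11.4% of all genes tested did, and 9 of the 25 had an unadjusted p under 0.05, where 30.1% of all genes did. The difference between these shares was not tested. The semaphorin genes SEMA3A and sema6ca and the plexin gene PLXNA2 rose in vein, by 4.17- to 5.08-fold, while the ligand gene sema7a and the receptor gene PLXNC1 fell, with no count in either vein library (quasi-likelihood test of edgeR, Benjamini-Hochberg adjusted p over all genes). By direction that is 3 members higher, where 4.11% of all genes tested were, and 2 lower, where 7.33% were. The median log2 fold of the tested members was 0.22, beside 0.01 over all genes tested. Both vein libraries stood above both non-vein libraries for 9 of the 25 and below them for 6, where 29.0% and 33.1% of all genes tested did so.

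**Figure D1:**
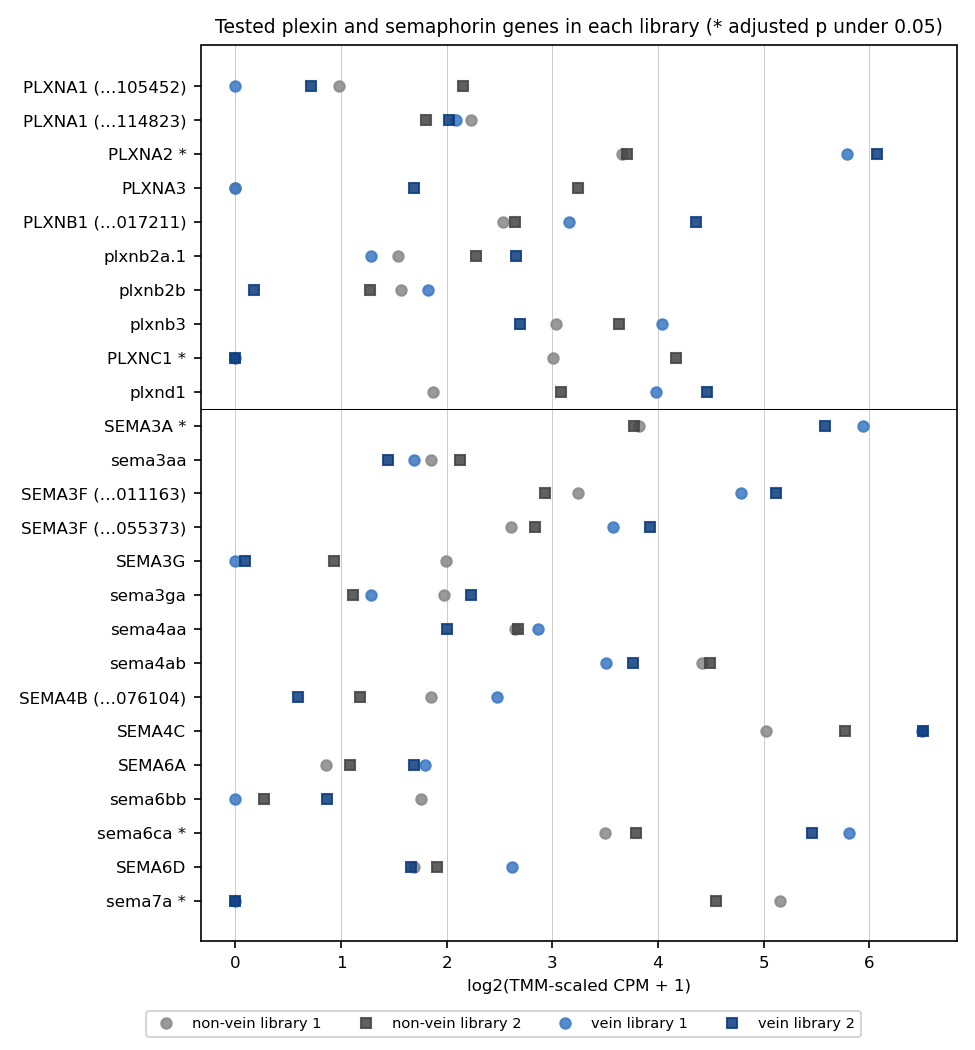
Level of each of the 25 tested members in each of the 4 libraries, as log2(CPM + 1), with plexins above the line and semaphorins below it and a star for an adjusted p under 0.05. PLXNA2, SEMA3A and sema6ca lie near 12 CPM in both non-vein libraries and at 42.9 CPM or more in both vein libraries, and sema7a and PLXNC1 lie at 0 in both vein libraries.

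Among the class 3 ligands, which are secreted, SEMA3A (ENSDARG00000042210) had the highest mean FPKM in both groups. This gene encodes the cue that repels axons through neuropilin 1 and class A plexins, and the name table gives its paralog sema3aa to another identifier. SEMA3A stood at 13.1 and 12.7 CPM (non-vein) against 60.5 and 47.0 CPM (vein). The groups did not overlap, and the non-vein libraries lay within 1 CPM of each other. SEMA3A rose 4.17-fold, with group means going from 12.9 ± 0.313 to 53.7 ± 9.53 CPM (SD, n = 2; log2 2.06, SE 0.35; edgeR, adjusted p = 0.0242). The log2 fold stayed between 1.87 and 2.23 when any 1 library was left out, but the adjusted p was 0.0620 or 0.0530 when the first or the second non-vein library was dropped, and 0.0628 when the first vein library was. Its paralog sema3aa lay a little lower in vein and did not pass the test, at 2.61 and 3.35 CPM (non-vein) against 2.22 and 1.72 CPM (vein) (edgeR, adjusted p = 0.785).

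The 2 genes named SEMA3F, a ligand that acts mainly through neuropilin 2, followed it by FPKM in class 3. The first (ENSDARG00000011163) had 8.48 and 6.61 CPM (non-vein) against 26.6 and 33.6 CPM (vein). Its groups did not overlap and its fold was close to that of SEMA3A, but it did not pass the test (log2 1.996, SE 0.46; edgeR, adjusted p = 0.0502, between 0.00173 and 0.143 over 16 other settings). The second (ENSDARG00000055373) had 5.11 and 6.15 CPM (non-vein) against 10.9 and 14.2 CPM (vein), also without overlap (log2 1.16, SE 0.62; edgeR, adjusted p = 0.286). SEMA3G (ENSDARG00000007560) went the other way. It had 55 and 18 counts (non-vein) against 0 and 1 (vein), a ratio of 59.4 with an exact 95% counting interval of 10.3 to 2378 (edgeR, unadjusted p = 0.0297, adjusted p = 0.119). The gene sema3ga overlapped between the groups, at 1.17 to 2.93 CPM in non-vein and 1.44 to 3.70 CPM in vein.

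The remaining class 3 genes were at or near 0. SEMA3B, SEMA3C and sema3gb had no count in any library. SEMA3E, the class 3 ligand that can bind plexin D1 without a neuropilin in mice, had 54 counts in vein library 2 and 0 in the other 3 libraries. SEMA3D had 3 counts, all in vein library 2, and sema3h had 27 and 4 non-vein counts and no vein count. In the RefSeq table of the assembly GRCz12tu sema3d and sema3e lie on the same chromosome with 2 protein-coding genes between them. None of these 6 genes was tested.

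Class 4 held the most abundant semaphorin per transcript length, SEMA4C (ENSDARG00000079611), a membrane-bound ligand of plexin B2. It was the first of the 30 semaphorins by mean FPKM in both groups, with 9.83 and 17.0 FPKM (non-vein) against 26.7 and 26.1 FPKM (vein). In non-vein library 1 sema7a stood above it, at 11.3 FPKM. In CPM the non-vein values of SEMA4C were 31.6 and 53.8, and its vein values 89.6 and 89.9. The vein libraries lay close together and above both non-vein libraries, which differed from each other by more. The difference did not pass the test (log2 1.07, SE 0.34; edgeR, adjusted p = 0.10001), and its log2 fold was 0.74 or 1.5003 when the first or the second non-vein library was dropped. DESeq2 called it (adjusted p = 0.0334), and it was the only one of 16 other settings to do so.

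The class 4 gene sema4ab lay lower in vein, at 20.3 and 21.5 CPM (non-vein) against 10.4 and 12.6 CPM (vein). Its groups did not overlap, yet the difference did not pass the test (log2 -0.87, SE 0.47; edgeR, adjusted p = 0.288). Its paralog sema4aa had 5.27 and 5.39 CPM (non-vein) against 6.27 and 2.997 CPM (vein), which overlap. Of the genes named SEMA4B, one (ENSDARG00000076104) overlapped between the groups at 0.510 to 4.57 CPM, and the other (ENSDARG00000074414) had 63 counts in vein library 2 against 0, 3 and 1 in non-vein libraries 1 and 2 and vein library 1. The gene sema4e had 7 counts in non-vein library 1, 40 in vein library 2 and 0 in the other libraries. Of the genes named SEMA4G one had 2 counts and the other none.

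Class 5 semaphorins, membrane proteins with thrombospondin repeats, were close to absent. SEMA5A had 3 counts in non-vein library 2, 36 in vein library 2 and 0 in the others. The genes named SEMA5B had 4 and 4 counts (ENSDARG00000061471) and 17 and 1 counts (ENSDARG00000075648) in the vein libraries and 0 in the non-vein libraries. All 3 were below the filter and were not tested.

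The class 6 ligands span the membrane and can also signal into the cell that carries them. In this class sema6ca (ENSDARG00000002748) had 10.3 and 12.9 CPM (non-vein) against 55.2 and 42.9 CPM (vein). The lower vein library was more than 3 times the higher non-vein library. The gene rose 4.23-fold, with group means going from 11.6 ± 1.79 to 49.0 ± 8.72 CPM (SD, n = 2; log2 2.08, SE 0.37; edgeR, adjusted p = 0.0277). Leaving out non-vein library 1 gave an adjusted p of 0.0836 and leaving out vein library 1 one of 0.0693, with log2 folds of 1.93 and 1.88. SEMA6A lay above non-vein in both vein libraries, at 0.815 and 1.12 against 2.48 and 2.23 CPM, but did not pass the test (edgeR, adjusted p = 0.561). SEMA6D and sema6bb overlapped between the groups, at 2.17 to 5.16 CPM and at 0 to 2.39 CPM. SEMA6C had at most 13 counts in a library, and sema6ba had none.

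The single class 7 gene, sema7a (ENSDARG00000078707), was counted in non-vein cells alone. It had 638 and 441 non-vein counts, or 34.7 and 22.4 CPM, and 0 and 0 in the vein libraries. By mean FPKM it ranked second of the 30 semaphorins in non-vein, after SEMA4C. In non-vein library 1, however, sema7a stood above SEMA4C, at 11.3 against 9.83 FPKM. Set against a floor of 3 counts over the vein group, its level in vein was lower by at least 293-fold (edgeR, adjusted p = 0.0149). The call held in each of 16 other settings, with a largest adjusted p of 0.0402.

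The receptor of semaphorin 7A, plexin C1, was also uncounted in vein. PLXNC1 (ENSDARG00000015278), the only class C plexin gene, had 130 and 336 non-vein counts, or 7.06 and 17.1 CPM, and 0 and 0 in the vein libraries. By the same floor it was at least 126-fold lower there (edgeR, adjusted p = 0.0256), and the non-vein libraries differed from each other by over 2-fold. Without non-vein library 2 the adjusted p was 0.0887. Both genes passed the filter through the non-vein libraries alone. Of all genes tested, 0.827% were called lower with 0 counts in both vein libraries.

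In mammals both sema7a and PLXNC1 are known from leukocytes as well as from neurons, and markers of leukocytes and blood progenitors were lower in vein too. Of 14 leukocyte marker genes 10 were tested, and 4 of them fell and 0 rose: rac2, CORO1A, LCP1 and cd74b. Of the 10 tested, 8 had a log2 fold below 0 and 2 above it. The latter, SPI1 and lck, overlapped between the groups and were not called. The 14 genes summed to 2655 and 2202 CPM (non-vein) against 187 and 796 CPM (vein), where lyz alone made up 82.8 and 563 CPM. Of the 17 leukocyte symbols chosen, mpx, mpeg1.1 and mfap4 were matched to no identifier and are not in these sums. The pan-leukocyte gene ptprc, which was not called, was at 11.0 and 9.96 CPM (non-vein) against 0 and 1.28 CPM (vein). The gene cd74b was at 0 in both vein libraries. Of 10 blood progenitor genes 5 fell and 0 rose, and the list summed to 1547 and 1701 CPM (non-vein) against 549 and 654 CPM (vein). LMO2, which was not called, gave 409 and 396 CPM (non-vein) against 471 and 544 CPM (vein) of these sums. It was the only gene of the list with a log2 fold above 0. Thrombocyte genes summed to 178 and 155 CPM (non-vein) against 96.2 and 169 CPM (vein). Of 7 tested genes 2 were lower, with itga2b at 0 in both vein libraries, and 1 was higher. The higher gene, THBS1 (ENSDARG00000010785), gave 21.1 and 32.1 CPM (non-vein) against 86.3 and 156 CPM (vein) of these sums. The other 6 tested genes had a log2 fold below 0. Erythroid genes did not lie lower: 0 of 7 tested changed by edgeR (1 had an unadjusted p under 0.05), 6 of the 7 had a log2 fold above 0, and the list summed to 1149 and 840 CPM (non-vein) against 744 and 1293 CPM (vein). The part of these cells in the values of sema7a and PLXNC1 was not tested. In bulk samples such as these, fewer cells of a type and less RNA per cell cannot be told apart.

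Neural cells are another common source of these genes. Of 15 identifiers matched to neural and glial markers, 13 remained without those named STMN1, a gene also active in dividing cells, and these summed to 9.07 and 6.25 CPM (non-vein) against 4.38 and 24.1 CPM (vein), of which the myelin gene mbpa gave 19.2 CPM in vein library 2. The neural and glial genes SOX10, OLIG2 and NEUROD1 had no count in any library. Of the 13 only 4 were tested and 0 were called, 2 with a log2 fold above 0 and 2 below it. Of these tubb5 lay lower in vein, at 3.42 and 0.864 CPM (non-vein) against 0.131 and 0.191 CPM (vein). The other 3 overlapped between the groups, with mbpa at 3.10 and 2.34 CPM in non-vein. With the genes named STMN1 the whole list summed to 1141 and 963 CPM (non-vein) against 65.8 and 89.5 CPM (vein), and 1 of the pair (ENSDARG00000004169) fell. The part of neural cells in the values of these members was not tested.

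**Figure D2:**
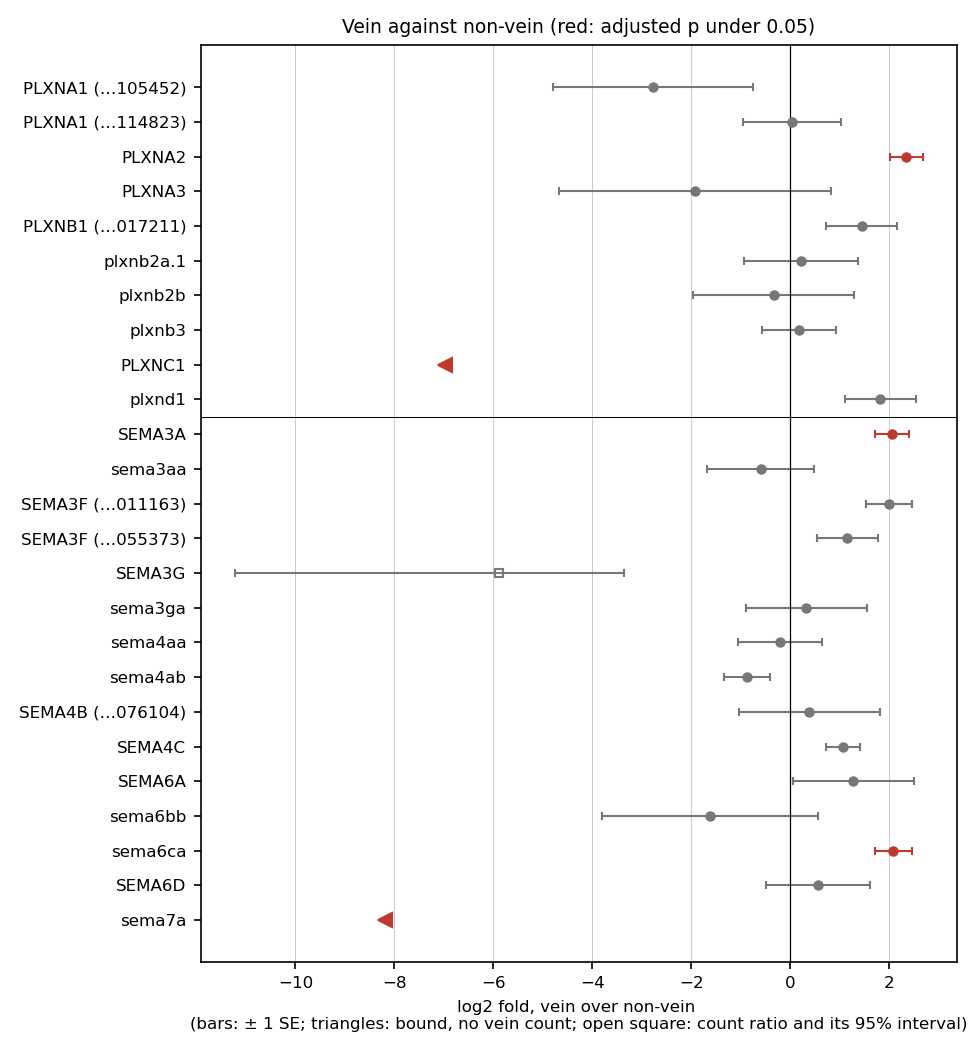
Log2 fold of vein over non-vein for the 25 tested members, with plexins above the line and semaphorins below it. Red points passed the test, bars give 1 SE, triangles give the bound for genes with no vein count (at least 126-fold for PLXNC1 and at least 293-fold for sema7a), and the open square gives the count ratio of SEMA3G with its 95% interval. PLXNA2, SEMA3A and sema6ca lie between log2 2.06 and 2.34.

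Among the class A plexins, the signalling partners of neuropilins, PLXNA2 (ENSDARG00000060372) stood out. It had 11.6 and 12.1 CPM (non-vein) against 54.1 and 66.4 CPM (vein). The non-vein values were almost equal and the vein values were at least 4 times higher. PLXNA2 rose 5.08-fold, with group means going from 11.9 ± 0.329 to 60.3 ± 8.66 CPM (SD, n = 2; log2 2.34, SE 0.33; edgeR, adjusted p = 0.0177). With any 1 library left out the log2 fold was between 2.19 and 2.48 and the adjusted p at most 0.0377. The other class A genes had at most 8.49 CPM in any library. Of the genes named PLXNA1, one (ENSDARG00000114823) overlapped between the groups at 3.69 and 2.49 against 3.27 and 3.06 CPM, and the other (ENSDARG00000105452) had 18 and 68 counts (non-vein) against 0 and 10 (vein) (edgeR, adjusted p = 0.436). PLXNA3 was counted in the second library of each group alone, with 167 counts in non-vein and 35 in vein, and PLXNA4 had 3 and 1 counts, both in vein.

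Of the 7 class B plexin genes, receptors of class 4 ligands, 4 were tested and none was called (0 by edgeR, and 0 had an unadjusted p under 0.05). PLXNB1 (ENSDARG00000017211) had 4.78 and 5.28 CPM (non-vein) against 7.90 and 19.5 CPM (vein), without overlap but with vein libraries over 2-fold apart (log2 1.44, SE 0.72; edgeR, adjusted p = 0.251). The gene plxnb3 overlapped, at 7.17 and 11.4 CPM (non-vein) against 15.5 and 5.48 CPM (vein). The receptor genes of SEMA4C, plxnb2a.1 and plxnb2b, overlapped too, at 1.44 to 5.29 CPM and 0.128 to 2.55 CPM. In GRCz12tu plxnb2a.1, plxnb2a.2 and plxnb2a.3 are direct neighbours. Here plxnb2a.2 had no count and plxnb2a.3 had 10 counts in non-vein library 2 and 2 in vein library 2. The second PLXNB1 gene had 7 counts, all in non-vein library 2, and it, plxnb2a.2 and plxnb2a.3 were not tested.

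The endothelial receptor gene plxnd1 (ENSDARG00000086057) had 2.66 and 7.47 CPM (non-vein) against 14.8 and 21.1 CPM (vein). Both vein libraries lay above both non-vein libraries, while the latter differed by nearly 3-fold. The difference did not pass the test (log2 1.82, SE 0.73; edgeR, adjusted p = 0.162), and dropping the first non-vein library gave a log2 fold of 1.27 and dropping the second gave 2.74. By mean FPKM plxnd1 ranked first of the 14 plexins in both groups, at 2.27 and 6.53 FPKM (non-vein) against 12.1 and 16.9 FPKM (vein), although in non-vein library 1 plxnb3 stood above it at 2.31 FPKM. The rank also rests on the length the FPKM values imply for it, 1194 bases, beside 6392 bases for PLXNA2 and 3256 for PLXNC1.

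Summed over each class by FPKM, semaphorin classes 3, 4, 5 and 6 and plexin classes A and D stood higher in vein. No p is given for these sums. Class 3 semaphorins summed to 11.1 and 9.40 FPKM (non-vein) against 31.4 and 29.7 FPKM (vein), and SEMA3A made up 48.7% of the non-vein and 64.2% of the vein sum. Class 6 went from 5.61 and 6.32 to 21.2 and 15.6 FPKM, of which sema6ca gave 59.4% in non-vein and 76.2% in vein. Class 4, led by SEMA4C, went from 16.2 and 23.8 to 32.0 and 31.8 FPKM. In these 3 classes the groups did not overlap, and 1 gene supplied most of the vein sum.

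Class 5 semaphorins summed to 0 and 0.0350 FPKM (non-vein) against 0.368 and 0.649 FPKM (vein). Class 7 semaphorins, at 11.3 and 8.11 FPKM in non-vein, are listed at 0 in vein, as are class C plexins, at 2.21 and 5.47 FPKM in non-vein. Class A plexins went from 2.68 and 4.36 to 8.86 and 10.9 FPKM, and PLXNA2 was 54.3% of the non-vein and 92.2% of the vein sum. Class B plexins overlapped between the groups, at 3.54 and 6.35 against 6.70 and 5.21 FPKM. Their log2 ratio of 0.27 became -0.09 without non-vein library 1. All semaphorins together summed to 44.3 and 47.7 FPKM (non-vein) against 85.03 and 77.8 FPKM (vein), and all plexins to 10.7 and 22.7 against 27.7 and 33.0 FPKM. The gene plxnd1 gave 26.3% of the non-vein and 47.8% of the vein plexin sum, shares that also rest on its implied length of 1194 bases.

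**Figure D3:**
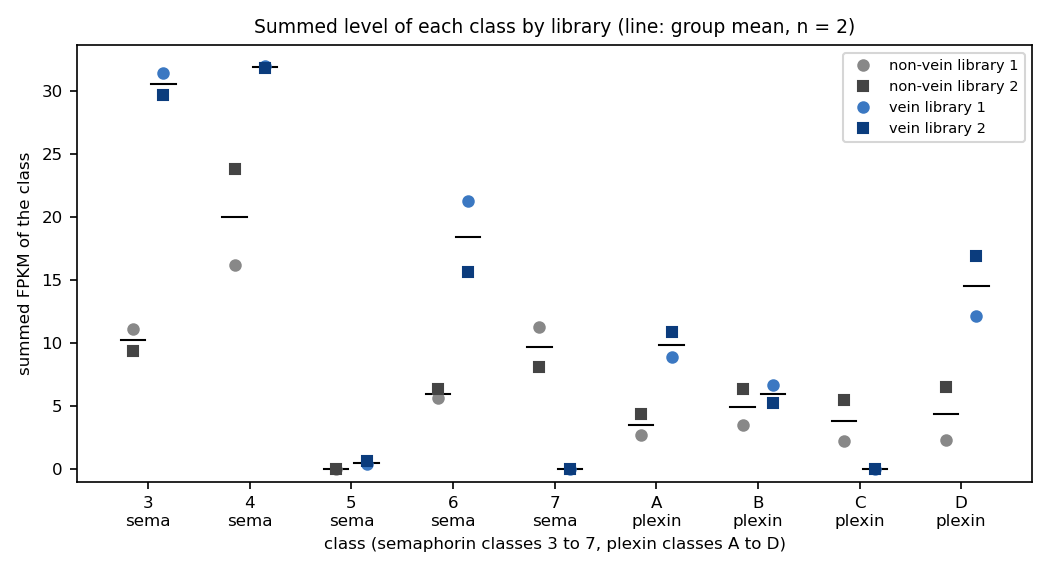
Summed FPKM of each semaphorin class (3 to 7) and plexin class (A to D) in each library, with a line for the mean of the 2 libraries of a group. Classes 3, 4, 6, A and D are higher in both vein libraries, as is class 5, at 0.649 FPKM or less. Classes 7 and C are at 0 in vein, and class B overlaps.

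Most pan-endothelial markers and most vein and lymphatic markers moved with the genes that were higher in vein. Of 12 pan-endothelial genes 9 rose and 0 fell, and the list summed to 4148 and 5776 CPM (non-vein) against 17822 and 15407 CPM (vein). Of these sums kdrl, whose promoter drives the GFP used for sorting, gave 1998 and 2956 CPM (non-vein) against 10504 and 7933 CPM (vein). Of 12 vein and lymphatic genes 8 rose and 0 fell, from sums of 450 and 1275 CPM to 7999 and 8088 CPM, including lyve1b, whose promoter drives the DsRed of the gate. TIE1, which rose, is in both lists. Each list had 1 gene with a log2 fold below 0, FLI1 in the first and PROX1 in the second, and neither was called. Arterial genes split, with 1 of 14 higher (dll4) and 3 lower (HEY1, HEY2 and TBX20). Of the 14, 7 had a log2 fold above 0 and 7 below it. TBX20, like sema7a and PLXNC1, was at 0 in both vein libraries, against 10.3 and 7.01 CPM (non-vein). HEY2 had 43.6 and 27.9 CPM (non-vein) against 0.0653 and 0.255 CPM (vein). The part of arterial cells in the values of sema7a and PLXNC1 was not tested. Skeletal muscle genes also summed higher in vein, at 777 and 1915 against 2838 and 7716 CPM, with 1 of 9 higher and 0 lower. All 9 had a log2 fold above 0, and 7 had an unadjusted p under 0.05 by edgeR. The gene actc1b, which was not called, gave 638 and 1631 CPM (non-vein) against 2374 and 6483 CPM (vein) of these sums. Mural and stromal genes summed to 342 and 443 CPM (non-vein) against 1572 and 1432 CPM (vein). Of 12 tested genes 2 were higher and 1 lower, and the 2 higher genes made up most of the vein sums. TAGLN (ENSDARG00000033466) gave 276 and 305 CPM (non-vein) against 885 and 810 CPM (vein), and CXCL12 30.4 and 90.6 against 642 and 457 CPM. The lower gene, NOTCH3, was at 0 in both vein libraries. PDGFRB was at most at 0.711 CPM in any library and CSPG4 at 0 in all of them. Of the 12 tested genes 8 had a log2 fold above 0 and 4 below it. Both vein libraries stood above both non-vein libraries for 6 of the 12 and below them for 2. The 6 include acta2, col1a1a, COL1A2 and twist1a, which were not called. Epidermal genes (1 of 9 lower, 0 higher) and pigment cell genes (0 of 6, 3 with an unadjusted p under 0.05) gave no gene called higher. Yet 8 of the 9 epidermal and 5 of the 6 pigment cell genes had a log2 fold above 0. All 8 of those epidermal genes and 3 of the pigment cell genes overlapped between the groups. Of the 3 pigment cell genes with an unadjusted p under 0.05, MITF (ENSDARG00000003732) lay lower in vein, at 0 in both libraries. The part of any of these cells in the values of SEMA3A, sema6ca and PLXNA2 was not tested.

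Several scarce members were counted in 1 vein library alone. At least 10 counts in vein library 2 with at most 1 in vein library 1 were found for 7 of the 44 members (15.9%), against 5.95% of all genes listed. They were SEMA3E, SEMA4B (ENSDARG00000074414), SEMA5A, sema4e, sema6bb, PLXNA3 and PLXNA1 (ENSDARG00000105452). The reverse held for 1 member, SEMA5B (ENSDARG00000075648), or 2.27%, against 2.65% of all genes listed. In non-vein, 2 members (4.55%) had at least 10 counts in library 2 with at most 1 in library 1, against 5.1% of all genes listed. The reverse held for 0 members, against 2.18%. Epidermal markers summed to 82.9 CPM in vein library 1 and 559 CPM in vein library 2, pigment cell markers to 5.62 and 98.0 CPM and muscle markers to 2838 and 7716 CPM. In non-vein libraries 1 and 2 these lists summed to 325 and 453 CPM, 3.04 and 20.9 CPM, and 777 and 1915 CPM. The epidermal gene icn, which was called lower in vein, gave 247 and 309 CPM (non-vein) against 34.1 and 60.9 CPM (vein) of the epidermal sums. The part of such cells in the counts of these members was not tested. Of the 7 genes only sema6bb, PLXNA3 and PLXNA1 (ENSDARG00000105452) passed the filter on low counts, and none of them was called.

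Beyond ligands and plexins, 77 genes of the pathway were examined in 3 lists: co-receptors, other receptors and proteases; GTPases and their regulators; and cytoplasmic effectors. Of these 64 were tested, and 4 rose and 2 fell in vein (edgeR, adjusted p under 0.05), with 14 at an unadjusted p under 0.05. Both shares of the 64 lie below those of all genes tested, 11.4% changed and 30.1% at an unadjusted p under 0.05, and the differences were not tested. The median log2 fold of the 64 was 0.37. The co-receptor list gave 2 higher and 0 lower of 11 tested, and the GTPase list 2 higher and 2 lower of 28, where 4.11% of all genes were higher and 7.33% lower. The effector list gave 0 of 25, although 4 effectors had an unadjusted p under 0.05. The lowest adjusted p of an effector was 0.0622.

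Neuropilins are the ligand-binding partners of class A plexins and also bind vascular endothelial growth factors. One of the genes named NRP2 (ENSDARG00000038446) stood at 4.08 and 8.94 CPM (non-vein) against 40.5 and 39.9 CPM (vein). It rose 6.16-fold (log2 2.62, SE 0.53; edgeR, adjusted p = 0.0357), with a log2 fold of 2.17 and adjusted p = 0.0751 once the first non-vein library was dropped, 3.29 and 0.0218 once the second was, and 2.61 and 0.0607 once the first vein library was. The other NRP2 gene (ENSDARG00000096546) had 4.29 and 3.25 CPM (non-vein) against 8.95 and 17.8 CPM (vein) (edgeR, adjusted p = 0.156). NRP1 (ENSDARG00000102153), a co-receptor for SEMA3A, had 83.2 and 101 CPM (non-vein) against 123 and 120 CPM (vein), a difference that did not pass the test (log2 0.40, SE 0.24; edgeR, adjusted p = 0.343). Its paralog nrp1b overlapped, at 23.3 and 16.5 against 5.22 and 16.9 CPM.

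ITGA1, which encodes the integrin chain that pairs with beta 1 and through which semaphorin 7A acts on immune cells in mice, had 31.6 and 34.3 CPM (non-vein) against 114 and 90.4 CPM (vein). It rose 3.09-fold (log2 1.63, SE 0.28; edgeR, adjusted p = 0.0248), opposite to sema7a and PLXNC1. Leaving out non-vein library 1 gave an adjusted p of 0.0622, and leaving out vein library 1 gave 0.0719.

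Among the GTPase genes, rac1a, for a GTPase that drives the cell edge forward, went from 56.3 and 78.6 to 189 and 180 CPM (log2 1.45, SE 0.27; edgeR, adjusted p = 0.0288). The gene arhgef12b, for an exchange factor that binds plexin B receptors in mammals, went from 24.4 and 31.0 to 91.6 and 71.0 CPM (log2 1.55, SE 0.31; edgeR, adjusted p = 0.0352). Neither gene overlapped between the groups. Dropping the first library of either group lost both calls, with adjusted p = 0.0589 and 0.0715 for rac1a and 0.111 and 0.1005 for arhgef12b, and that of rac1a was also lost without vein library 2 (adjusted p = 0.0523).

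Both lower genes of the pathway were nearly uncounted in vein and, like sema7a and PLXNC1, passed the filter through the non-vein libraries alone. RND3 (ENSDARG00000007396), for a small GTPase that binds plexins in mammals, had 317 and 320 counts (non-vein) against 1 and 0 (vein), a ratio of 518 with an exact 95% counting interval of 92.7 to 20507 (edgeR, adjusted p = 0.0167). Its paralog of the same name (ENSDARG00000076799) lay the other way, at 82.5 and 141 CPM (non-vein) against 289 and 272 CPM (vein) (log2 1.33, SE 0.31; edgeR, adjusted p = 0.0505). The gene sh3bp1, for a GTPase-activating protein bound by plexins in mammals, had 175 and 235 counts in non-vein and 0 in vein, at least 111-fold lower (edgeR, adjusted p = 0.0235). The adjusted p rose to 0.0508 and 0.0546 when non-vein library 1 or 2 was left out.

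**Figure D4:**
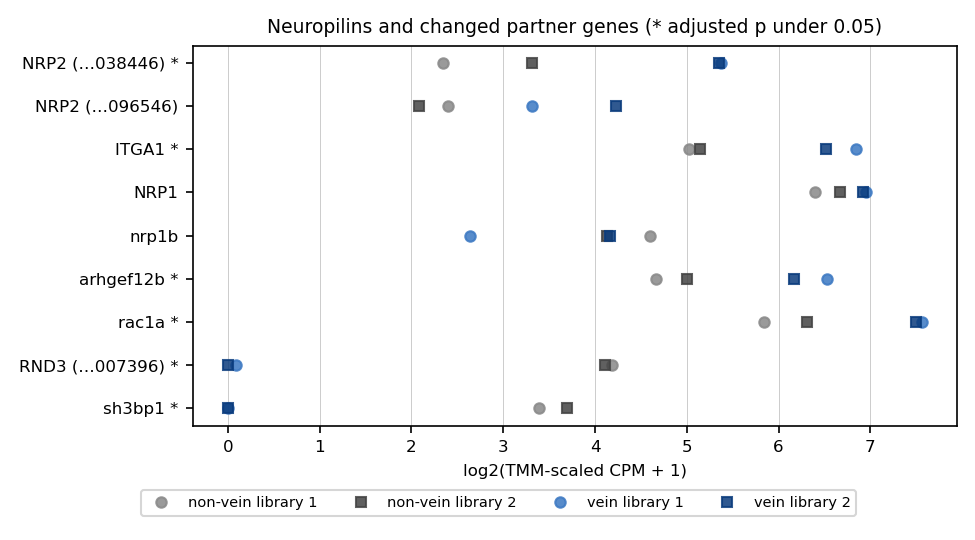
Level of the neuropilin genes and of each changed partner gene in each library, as log2(CPM + 1), with a star for an adjusted p under 0.05. RND3 (ENSDARG00000007396) and sh3bp1 lie at or next to 0 in both vein libraries, and NRP2 (ENSDARG00000038446), ITGA1, rac1a and arhgef12b lie higher in both vein libraries.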

How the data were processed

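The authors deposited 2 tables. RSEM, HISAT2, DESeq2, StringTie 1.3.1, fastp 0.18.0 and Bowtie2 2.2.8, and the build GRCz11, appear in the submitters' processing notes, without their roles. One table deposited by the authors holds whole numbers, treated as rounded estimated counts although its headers say FPKM. The other holds FPKM values deposited by the authors. Whether reads were counted by strand was not stated in these sources.

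Genes were kept by filterByExpr with a count minimum of 10. After TMM scaling, group was the only factor in the quasi-likelihood test of edgeR 4.0.16 (R 4.3.3), with Benjamini-Hochberg adjustment over all genes and a threshold of 0.05. The fit was run on simulated data with a smaller spread between libraries than here, so that run gives no error rates for these data. SE is the size of the log2 fold over the square root of F. The symbol table given with the data matched 23608 of 25522 Ensembl identifiers. RefSeq (GRCz12tu) gave neighbours only. Alternatives included DESeq2 1.42.0, limma 3.58.1 and leaving out each library. Members and lists were chosen with earlier results of these data known. Chosen symbols matched to no identifier were left out of the lists. They were 4 muscle, 3 leukocyte, 2 arterial, 2 erythroid, 1 pan-endothelial, 1 thrombocyte and 3 partner symbols. Members that changed or had a mean of at least 10 CPM are given in full, as are neuropilins and changed partner genes. A two-sided exact permutation test of 2 against 2 libraries cannot go below 0.33.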

Additional observations from a re-analysis of the deposited data

How the results depend on the processing

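The count of changed genes was 1826, and it was 4082 with DESeq2, 2845 without a filter, 3300 with limma on log2(FPKM + 1) at a mean FPKM of at least 1, 1170 with the replicate block, and 1084 to 1903 with 1 library left out, lowest without non-vein library 1. The 3 changed semaphorins became 5 with DESeq2, 1 with unfiltered log2(FPKM + 1) values in limma and 1 to 3 with 1 library left out, 1 when the first library of either group was dropped. The 2 changed plexins became 0 with unfiltered log2(FPKM + 1) values in limma, where the smallest adjusted p of the pair was 0.0796, 1 with the replicate block and 1 to 2 with 1 library left out, 1 without non-vein library 2. The 6 changed partner genes became 12 with DESeq2, 10 without a filter, 10 with limma-voom, 1 with unfiltered log2(FPKM + 1) values in limma, 2 with the replicate block and 1 to 7 with 1 library left out, 1 when the first non-vein library was dropped and 2 when the first vein library was. The cause of these shifts was not tested. Library numbers pair no samples by the labels, and deviations of same-numbered libraries correlated at r = 0.044 over genes. Yet PLXNA3 and the pigment cell genes DCT, pmela and TYRP1 (ENSDARG00000056151) were counted in the second library of each group alone. Other genes crossed the numbers. The genes sema4e and lck were counted in non-vein library 1 and vein library 2 alone. STMN1 (ENSDARG00000033655) was counted in non-vein library 2 and vein library 1 alone. The share of all genes with either pattern was not computed. Whether same-numbered libraries share a source was not tested, so the block shows only how counts of calls move. No member named in full changed direction in any of 16 settings. The summed level of class B plexins ran from a log2 ratio of -0.0924 to 0.752 with 1 library left out. Semaphorin class 7 and plexin class C, at 0 in both vein libraries, have no ratio. Semaphorin class 5, at 0 in non-vein library 1, was not followed over the settings. With 2 libraries a group and a biological coefficient of variation of 0.699, precision for members below 10 CPM was low.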
